A study of Caenorhabditis elegans with 2 samples.

Results

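The SL2-type spliced leader RNA genes sls-2.1, sls-2.4, sls-2.7, sls-2.8 and sls-2.9 of Caenorhabditis elegans were examined as targets of SNPC-4. They are 5 of the 18 annotated SL2-type genes and 5 of the 46926 genes in the RefSeq annotation of WBcel235, the assembly that ce11 names. The 5 genes were chosen by name from the strength of their own signal in the lists described here, so signals and ranks are given as descriptions with no test. All 3 SL2-type genes that have a peak in the thresholded ce11 list are among them (sls-2.4, sls-2.7 and sls-2.9), and so are the 3 SL2-type genes of highest pooled signal (sls-2.4, sls-2.1 and sls-2.8). On WBcel235, sls-2.4 lies on chromosome I from 4172206 to 4172315 (plus strand), sls-2.7 on chromosome I from 9057890 to 9057999 (minus strand) and sls-2.9 on chromosome I from 13297877 to 13297985 (plus strand). On the plus strands of the other 2 chromosomes, sls-2.1 spans 5844865 to 5844974 of II and sls-2.8 spans 12250465 to 12250575 of III. A region was assigned to a gene when its summit lay within 200 bp of the gene body.

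The series holds 2 ChIP-seq libraries, biological replicates 1 and 2 of 1 group. The material was whole embryos of mixed stage, male and female pooled, of strain OP179, which carries the allele unc-119(ed3) on III and the insertion wgIs179 and produces SNPC-4 fused to eGFP. The antibody is labelled only snpc-4, which leaves unsaid whether it bound the tag or the protein, and nothing is said of the promoter that drives the fusion or of the endogenous gene. No control library is among the samples, and read depth and read length are unknown. For each build there was a list of 30000 candidate regions for either replicate and for the pooled replicates, and a thresholded list; the thresholded ce11 list covers a single chromosome, and the thresholded ce10 list covers all 7, the mitochondrial genome included. Candidate lists of this length hold weak regions by construction. The strongest pooled ce11 regions, as many as the thresholded ce10 list has peaks, were therefore used as a genome-wide set, called the top set here. The median signal of the pooled list was 9.629 and the lowest 6.656, in the authors' units, which rank regions within a list.

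Most messenger RNAs of C. elegans begin with a short leader that is cut from a spliced leader RNA and joined on by trans-splicing. The SL1 leader goes mainly to the first or only gene of a transcription unit, and SL2-type leaders go mainly to the downstream genes of operons. Spliced leader RNAs are small non-coding RNAs that carry the leader at their 5′ end and a binding site for Sm proteins near their 3′ end, and RNA polymerase II makes them from promoters like those of small nuclear RNA genes. SNPC-4 is the worm counterpart of the largest subunit of SNAPc, a complex that binds the proximal sequence element upstream of such genes.

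The RNAs of sls-2.1 and sls-2.8, of 110 and 111 bases, are printed to show the features that define the gene family. Capitals mark the leader, up to the GT that begins the intron-like part, and the word AATTTTTGG, which contains the Sm binding site. The sequences are from RefSeq, build WBcel235 (ce11), written 5′ to 3′ as DNA.
sls-2.1 (chrII:5844865-5844974, plus strand): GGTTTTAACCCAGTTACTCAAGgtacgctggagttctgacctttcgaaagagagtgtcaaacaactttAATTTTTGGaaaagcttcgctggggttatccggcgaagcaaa
sls-2.8 (chrIII:12250465-12250575, plus strand): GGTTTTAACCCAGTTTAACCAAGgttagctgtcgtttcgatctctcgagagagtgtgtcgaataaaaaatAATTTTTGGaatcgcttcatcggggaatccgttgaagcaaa
The 2 leaders differ in length, 22 bases in sls-2.1 and 23 in sls-2.8. The leader of sls-2.1 is also that of sls-2.4 and of sls-2.2 and sls-2.3 outside the chosen genes. The 22-base leader of sls-2.7 is shared with sls-2.5 and sls-2.6, whereas the leaders of sls-2.8 and sls-2.9 (21 bases) are each found in 1 gene only among the 18. The word AATTTTTGG is present in 5 of the 5 genes and in 13 of all 18 SL2-type genes.

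The DNA upstream of the same genes is printed because the ChIP-seq summits fall in it. Each window covers 80 to 21 bp upstream of the 5′ end on the strand of the gene, 5′ to 3′, from RefSeq WBcel235 (ce11). Capitals mark the bases from 70 to 31 bp upstream, a stretch chosen after the windows had been compared. After sls-2.1 and sls-2.8 come the 3 SL2-type genes with the highest pooled signals outside the chosen genes, for comparison.
sls-2.1 (chrII:5844785-5844844, plus strand): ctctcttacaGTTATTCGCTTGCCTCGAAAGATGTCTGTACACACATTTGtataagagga
sls-2.8 (chrIII:12250385-12250444, plus strand): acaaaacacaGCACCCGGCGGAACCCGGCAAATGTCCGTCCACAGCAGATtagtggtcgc
sls-2.2 (chrII:5543518-5543577, plus strand): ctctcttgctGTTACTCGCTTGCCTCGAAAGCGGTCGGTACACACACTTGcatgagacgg
sls-2.14 (chrIII:11090544-11090603, minus strand): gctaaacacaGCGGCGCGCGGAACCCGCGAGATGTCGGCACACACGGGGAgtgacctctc
sls-2.5 (chrIII:7140574-7140633, minus strand): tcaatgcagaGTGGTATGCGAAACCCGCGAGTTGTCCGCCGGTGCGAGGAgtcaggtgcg
In sls-2.1 the capitals run through the word TGTCTG, whose first base lies 48 bp upstream of the 5′ end. The windows of sls-2.8, sls-2.14 and sls-2.5 hold TGTC at the same distance.

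In both libraries, the strongest SNPC-4 region of the whole genome stood at sls-2.4. Its signal was 4055 in the pooled list, 2116 in replicate 1, 1946 in replicate 2 and 4061 in the thresholded list, and it held rank 1 in all 4 ce11 lists. The region was 592 bp wide in the pooled list, and the gene itself is 110 bp long. No other SL2-type gene reached this level in any ce11 list.

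Both sls-2.1 and sls-2.8 followed within the 5 strongest regions. The signal at sls-2.1 was 2899 pooled, 1437 in replicate 1 and 1464 in replicate 2, at rank 4 in the 3 lists. That at sls-2.8 was 2764 pooled, 1349 in replicate 1 and 1425 in replicate 2, at rank 5 in the 3 lists, and its region was the strongest of chromosome III. Neither could be looked up among the thresholded ce11 peaks, since that list covers neither of their chromosomes.

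Lower, but still among the 50 strongest pooled regions, were sls-2.9 together with sls-2.7. The signal at sls-2.9 was 568.9 pooled (rank 49), 275.8 in replicate 1 (rank 49), 297.9 in replicate 2 (rank 48) and 569.7 in the thresholded list (rank 9). At sls-2.7 it was 561.2 pooled (rank 50), 269.1 in replicate 1 (rank 51), 294 in replicate 2 (rank 50) and 564.6 in the thresholded list (rank 10). Within the 5 genes, a high group of 3 and a low group of 2 did not overlap in any candidate list. Their highest pooled signal was 7.23 times the lowest. The genes were chosen on these signals, so the split describes the choice and not the family. Unchosen SL2-type genes lay between the groups, among them sls-2.2 (2533). Given that choice, all 5 stood far above the body of the list, from 58.3 times its median at sls-2.7 to 421 times at sls-2.4. Against the median of the top set the range was 12.3 to 88.5 times.

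**Figure D1:**
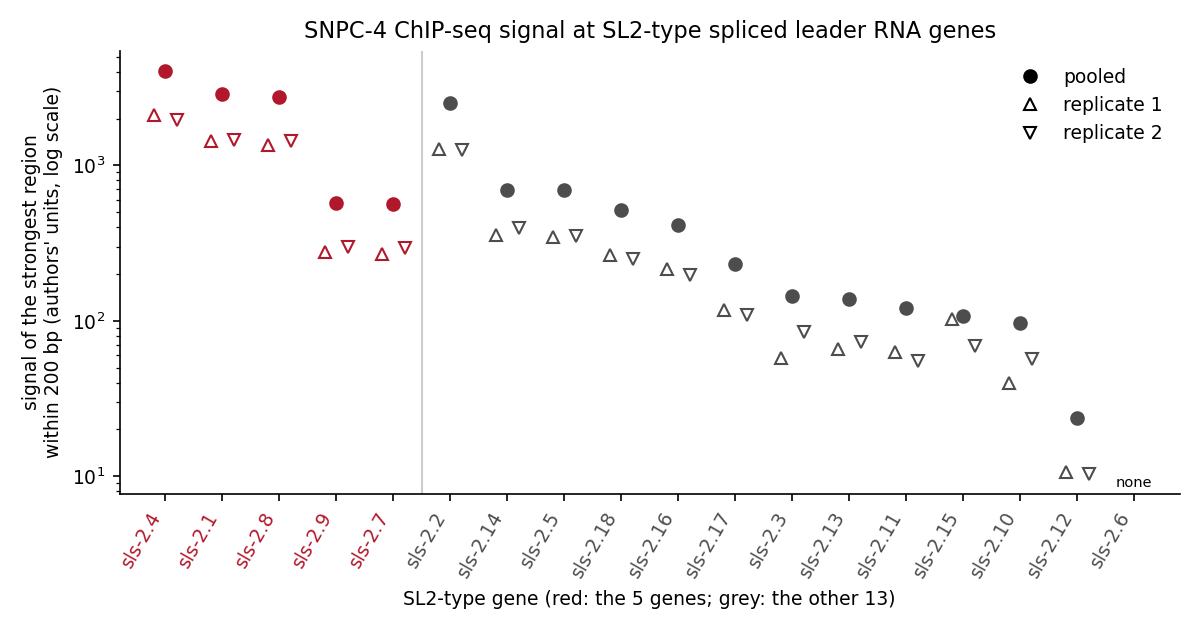
Signal of the strongest region within 200 bp of each of the 18 SL2-type genes (vertical axis, authors' units, log scale), with the 5 chosen genes in red at the left and the other 13 in grey; filled circles are the pooled list and open triangles the replicates. The red circles lie between 561.2 and 4055, sls-2.2 lies at 2533, below the 3 high red circles and above the 2 low ones, and sls-2.6 has no region.

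The strength of the signal did not by itself separate the 5 genes from the rest of the family. The gene sls-2.2, with a pooled signal of 2533 at rank 7, stood between sls-2.8 and sls-2.9, as did sls-2.14 (698.1, rank 42) and sls-2.5 (689.6, rank 43). Just below sls-2.7 came sls-2.18 with 513.9 at rank 55. At the other end of the family, sls-2.12 had 23.77 at rank 1816, and sls-2.6 had no region within 200 bp in any of the 4 ce11 lists. Among the other 13 genes, 11 had a region in the top set, with signals from 96.56 to 2533 and a median of 231.1, a range of 26.2-fold. The pseudogene sls-2.19, which is not counted in the 18, had 68.4 at rank 298.

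The replicates placed the 5 genes at nearly the same level and rank. The ratio of replicate 1 to replicate 2 was 0.982 at sls-2.1, 1.088 at sls-2.4, 0.915 at sls-2.7, 0.946 at sls-2.8 and 0.926 at sls-2.9. Over the 50 strongest pooled regions the same ratio ran from 0.801 to 1.18 with a median of 0.954, so the 5 genes lay inside the spread of regions of like strength. Over the 1075 regions of the top set that could be matched in both replicates, the central 90% ran from 0.423 to 2.26. The order sls-2.4, sls-2.1, sls-2.8 was the same in both replicates, but in replicate 2 the signals of sls-2.1 (1464) and sls-2.8 (1425) were closer than those of sls-2.8 in its own replicates. The neighbouring levels of sls-2.9 and sls-2.7 are closer than the gap between either gene's replicates. Within each library sls-2.9 stood slightly higher, at 275.8 against 269.1 in replicate 1 and 297.9 against 294 in replicate 2. With 2 libraries of 1 group and no controls, no test of these differences was made.

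A candidate region near a gene is common in lists of this length, and the counts of genes were read against that background. All 5 genes had a candidate region of any strength within 200 bp, as did 12 of the 13 other SL2-type genes, where 34.2% of all annotated genes had one. With the top set the counts were 5 of 5 and 11 of 13, against 2.49% of all genes. A summit of those regions 1 to 100 bp upstream of the 5′ end was found at 5 of 5 and at 10 of 13, against 0.595% of all genes. With the 50 strongest regions, a limit chosen after the signals had been seen, they were 5 of 5 and 3 of 13, against 0.217%. Of the chosen genes on the chromosome covered by the thresholded ce11 list 3 of 3 had a peak, and of the other SL2-type genes there 0 of 1 (sls-2.6), against 4.38% of the 4204 genes of that chromosome. Since the 5 genes were chosen on these signals, nothing about them follows from their own counts.

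The SL1 genes, the other branch of the family, had no region to compare. None of the 12 SL1-type genes, which lie together on chromosome V, had a candidate within 200 bp in the pooled list. Of the 36-base words within 150 bp of the 5′ end, between 0 and 13.6% (median 0%) occurred once in the genome at the SL1 genes. At the 5 SL2-type genes the share was 76.6% for sls-2.1, 93.2% for sls-2.4, 96.2% for sls-2.7 and 100% for sls-2.8 and sls-2.9, and at the other 13 it was 43.8 to 100%. How reads that align to several places were handled is not given in the sources used here, and the part of repeated sequence in these levels was not tested.

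The summits sat at nearly the same place at the 5 genes. In the pooled list the summit lay 37 bp upstream of the 5′ end at sls-2.4, 48 bp upstream at sls-2.1 and at sls-2.8, 50 bp upstream at sls-2.9 and 51 bp upstream at sls-2.7. In replicate 1 the distances were 36 bp at sls-2.4, 48 bp at sls-2.1 and sls-2.8, 62 bp at sls-2.9 and 51 bp at sls-2.7. In replicate 2 they were 37 bp at sls-2.4, 49 bp at sls-2.1, 51 bp at sls-2.8, 50 bp at sls-2.9 and 41 bp at sls-2.7. All 18 summits of the 5 genes in the 4 ce11 lists thus lay between 62 and 36 bp upstream, and none lay in the gene body.

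These positions were repeatable to within 12 bp. The replicate summits were 1 bp apart at sls-2.1 and at sls-2.4, 3 bp at sls-2.8, 10 bp at sls-2.7 and 12 bp at sls-2.9. The median gap was 4 bp (highest 26 bp) over the 50 strongest regions and 22 bp over the 1075 matched regions. The 14 bp that separate the pooled summit of sls-2.4 from that of sls-2.7 exceed either gene's own gap. In replicate 2, however, these summits lay closer together, at 37 and 41 bp upstream. The 3 bp between the pooled summits of sls-2.1 and sls-2.7 do not exceed the 10 bp of sls-2.7.

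The same distance was found at other small nuclear RNA genes. The median pooled summit was 48 bp upstream at the 5 genes and 41 bp upstream at the 11 other SL2-type genes with a region in the top set, where it ran from 58 bp upstream to 14 bp inside the gene (sls-2.15). The summit of sls-2.15 lay upstream in both replicates, by 22 bp in replicate 1 and 7 bp in replicate 2. At the 60 of 99 other small nuclear RNA genes with a region in the top set the median was 48 bp upstream, and 45 of the 60 lay between 70 and 30 bp upstream.

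**Figure D2:**
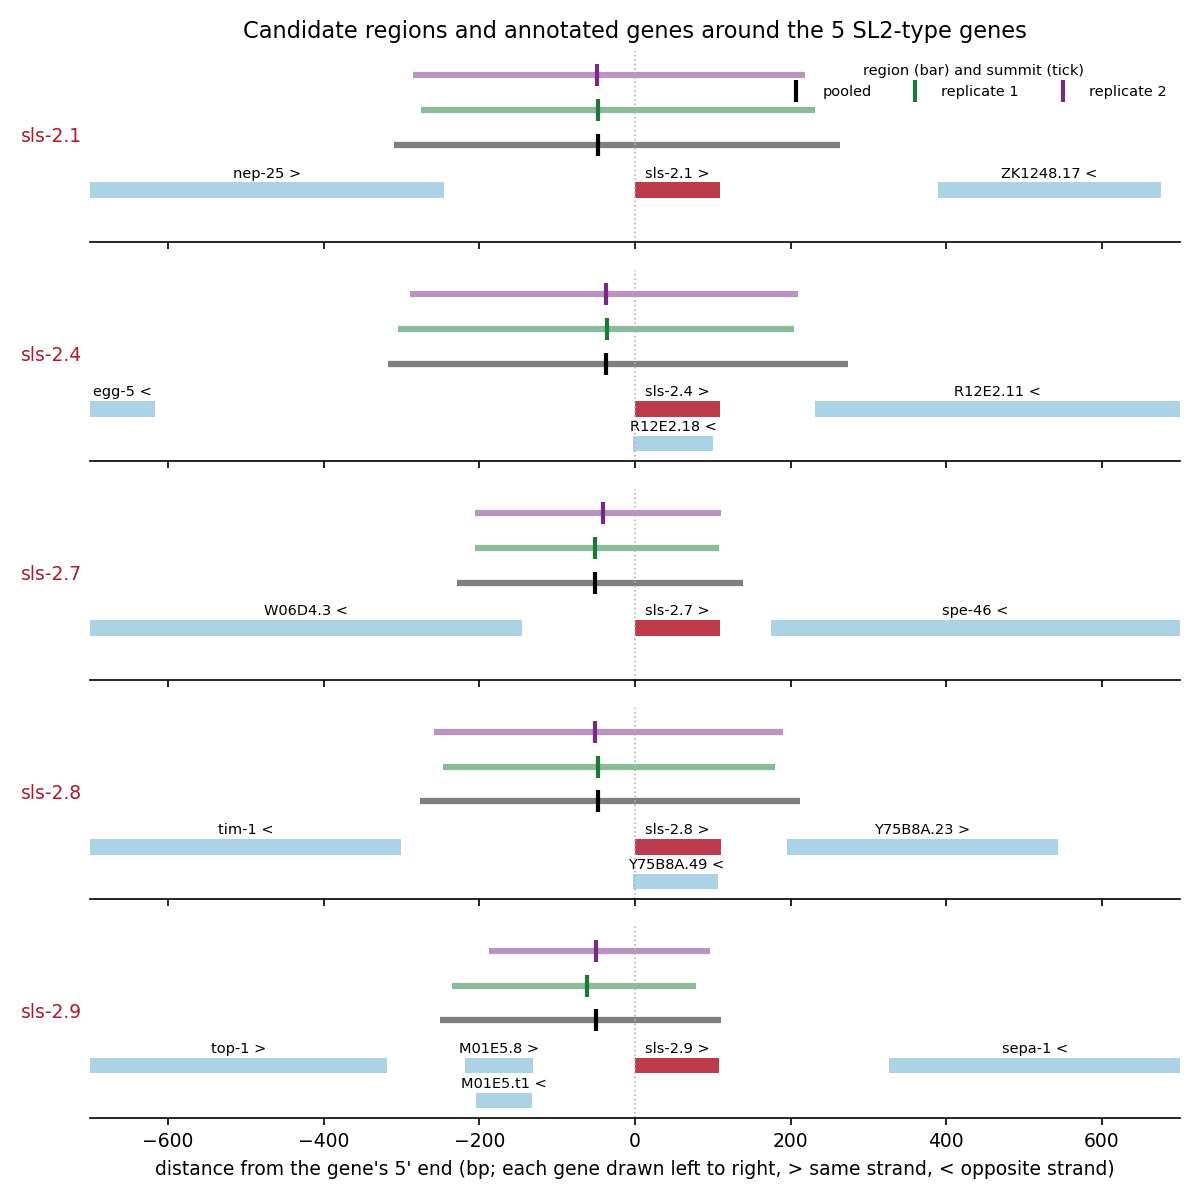
Candidate regions (bars) and summits (ticks) of the pooled list and both replicates around each of the 5 genes, with the gene in red and neighbouring annotated genes in blue; the horizontal axis is the distance in bp from the gene's 5′ end, with every gene drawn left to right. Each summit falls upstream of the red gene by 36 to 62 bp; the pooled regions cover the gene body, while both replicate regions of sls-2.9 and that of sls-2.7 in replicate 1 end inside it.

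All 5 pooled summits lay between annotated genes, and each pooled region extended over part or all of a neighbouring gene. At sls-2.4 the non-coding RNA gene R12E2.18 overlaps the gene by 101 bp on the opposite strand. The nearest upstream gene there is egg-5, which encodes a pseudophosphatase of the egg-to-embryo transition, and its 5′ end is 580 bp from the summit. At sls-2.8 the non-coding RNA gene Y75B8A.49 overlaps in the same way by 108 bp, and the divergent gene tim-1, a timeless homologue that acts in chromosome cohesion, begins 253 bp from the summit. The summit lay 35 bp beyond the 3′ end of R12E2.18 and 137 bp from its 5′ end, against 37 bp upstream of sls-2.4. For Y75B8A.49 these distances were 46 and 155 bp, against 48 bp upstream of sls-2.8. ChIP-seq signal carries no strand, so signal alone cannot tell whether these summits belong to the SL2-type genes or to the antisense genes, and this was not tested.

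Divergent genes stood closer to the 2 weaker regions. At sls-2.9 the 5′ end of the tRNA-Lys gene M01E5.t1 was 82 bp from the summit on the other side, against 50 bp for sls-2.9 itself, and the non-coding RNA gene M01E5.8 covers the tRNA gene on the other strand. The pooled region covers the whole tRNA gene, and in replicate 1 the summit lay nearer to it, 62 bp upstream of sls-2.9. The gene for topoisomerase top-1 ends upstream of M01E5.t1 and M01E5.8. At sls-2.7 the protein-coding gene W06D4.3 begins 94 bp from the summit in the opposite direction, against 51 bp for sls-2.7. Signal alone cannot tell which gene of such a pair a summit belongs to, and this was not tested. At sls-2.1 the nearest neighbour is the 3′ end of nep-25, of the neprilysin peptidase family, 197 bp from the summit.

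No other region of the top set had its summit within 5000 bp of the pooled summit at any of the 5 genes. The strongest other candidate within 5000 bp had a signal of 17.97 near sls-2.1, 30.99 near sls-2.4, 12.53 near sls-2.7, 15.4 near sls-2.8 and 12.14 near sls-2.9. The signal at the gene was higher by 161-fold at sls-2.1, 131-fold at sls-2.4, 44.8-fold at sls-2.7, 179-fold at sls-2.8 and 46.9-fold at sls-2.9. The genes were chosen on their signal, so high ratios follow in part from the choice, and other strong regions were not compared. The neighbour of sls-2.7 in its own family, sls-2.6, lies 2627 bp away inside the interval annotated to hgo-1, a homogentisate oxidase gene, and was not itself under a region.

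The regions of next higher and lower rank were also at small RNA genes for the high group. Rank 2, with a signal of 3168, lay by the snoRNA gene Y53F4B.47, and rank 3, with 3125, by the snoRNA gene Y37E3.20 and the non-coding RNA gene Y37E3.29. Rank 6, with 2651, lay at the small nuclear RNA gene W05B2.8 in the dynein gene dhc-4. For the low group, rank 48 (587.2) lay in cng-1 and rank 51 (551.4) in hum-2, both without an annotated small RNA gene within 200 bp.

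The protein genes of the same pathway had lower signals than the 5 SL2-type genes, an order that the choice of the 5 on signal favours. Of the 7 trans-splicing protein genes sna-1, sna-2, sna-3, sut-1, cpf-2, uaf-1 and uaf-2, 1 had a region in the top set, cpf-2 (45.36, rank 562, 120 bp upstream), which encodes a subunit of the cleavage stimulation factor and is linked to SL2 trans-splicing. Of the 7 Sm protein genes snr-1 to snr-7 and of the 7 genes for SNAPc subunits, 0 of 7 in each list had such a region, and their highest signals were 15 and 22.7. With 2.49% of all genes having a region in the top set, these counts are near the background. Candidates of any strength lay at 3 of 7 trans-splicing genes, 4 of 7 Sm genes and 5 of 7 SNAPc genes, where 34.2% of all genes had one. The signal at sls-2.7, the lowest of the 5 chosen SL2-type genes, was 561.2. Among the other 13 SL2-type genes, the 11 in the top set had at least 96.56. The other two lay below cpf-2, sls-2.12 with 23.77 and sls-2.6 with no region.

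The rule that chose the 5 genes did not use sequence, but the stretches compared upstream were drawn after the windows and summits had been seen, so their contrast is a description. The RNAs were 71.6 to 90.9% identical over the 10 pairs of genes (median 76.3%), with the highest value for sls-2.1 and sls-2.4. From 70 to 31 bp upstream the pairs were 40 to 82.5% identical without gaps (median 45%), again highest for sls-2.1 and sls-2.4. From 110 to 71 bp upstream identity was 12.5 to 35% (median 28.8%), and from 30 to 1 bp upstream it was 20 to 63.3% (median 35%). Over all 153 pairs of the 18 SL2-type genes the medians were close to these, 76.1% for the RNAs, 47.5% from 70 to 31 bp upstream, 30% from 110 to 71 bp and 36.7% from 30 to 1 bp.

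Within that stretch 8 of 40 positions held the same base in all 5 genes. They lay 57, 55, 48, 47, 45, 43, 40 and 39 bp upstream of the 5′ end. In the 40 positions farther upstream 0 were shared by all 5, and in the 30 nearest the gene 1 was, 2 bp upstream. Over the 16 SL2-type genes with a region in the top set, the positions 55, 43 and 2 bp upstream held the same base in 16 of 16.

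**Figure D3:**
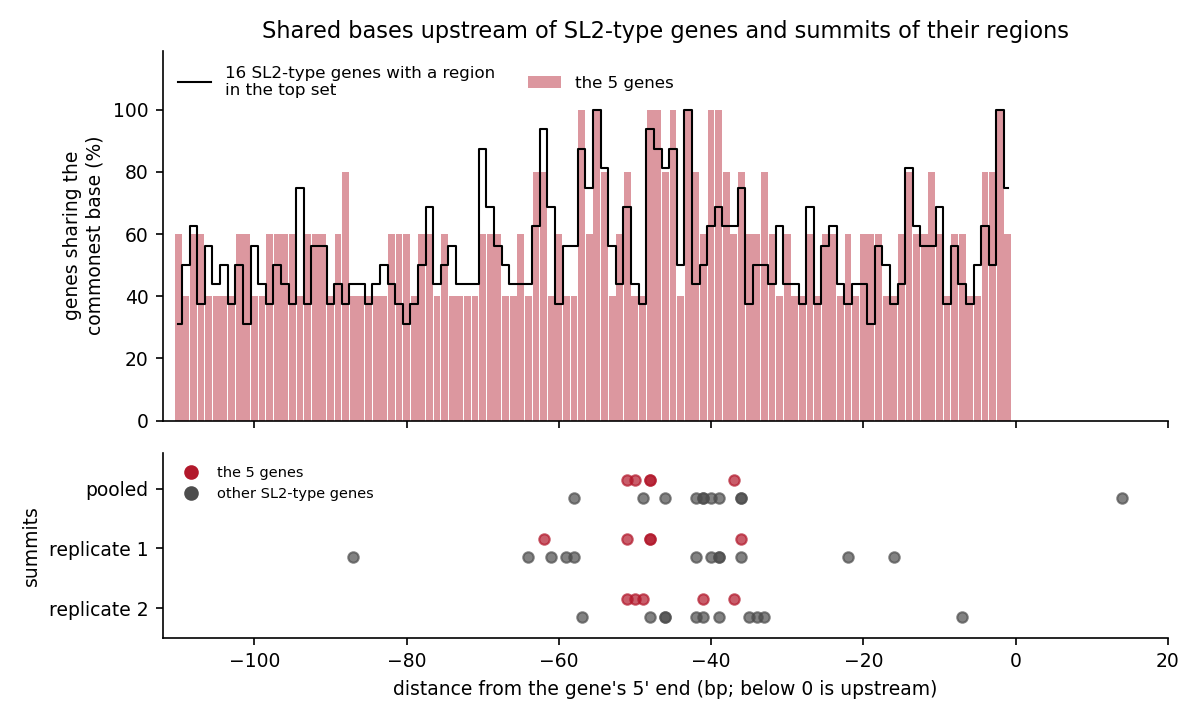
Upper panel, share of genes (percent) with the commonest base at each distance upstream of the 5′ end, for the 5 genes (red bars) and for the 16 SL2-type genes with a region in the top set (black line); lower panel, summit positions in the 3 candidate lists, red for the 5 genes and grey for the other SL2-type genes, with the horizontal axis in bp from the 5′ end. Of the 9 positions at 100% in red, 8 lie between 57 and 39 bp upstream, near the red summits of 62 to 36 bp upstream, and the other lies 2 bp upstream, away from them.

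No exact word marked all 5 genes at a like distance. The word TGTCTG was picked as the longest word that the 5 genes share with up to 1 mismatch, 48 to 43 bp upstream, so its presence in all 5 was fixed by the choice. At the same distance and with up to 1 mismatch it was in 14 of the 18 SL2-type genes, the 5 included, and in 1.07% of all annotated genes. Anywhere from 80 to 31 bp upstream and on both strands the same word with 1 mismatch was in 31.3% of all windows, so the letters alone are common. The exact word TGTC began 48 bp upstream in sls-2.1, sls-2.4, sls-2.8 and sls-2.9 and not in sls-2.7, and was in 22.4% of all windows on either strand. It is contained in TGTCTG, so the 2 searches overlap.

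Rarer words split the 5 genes into subsets. GCCTCGAA began 59 bp upstream in sls-2.1 and sls-2.4, and also in sls-2.2 and sls-2.3, and was in 0.0554% of all windows on both strands. AACCCG began 59 bp upstream in sls-2.7 and sls-2.8, in 9 of the 16 SL2-type genes of the top set in all, and was in 0.857% of all windows. GTACAC began 43 bp upstream in sls-2.1, sls-2.4 and sls-2.9, and also in sls-2.2. It was in 6 of the 16 SL2-type genes of the top set in all, and in 0.983% of all windows. The subset with GCCTCGAA includes the strong genes sls-2.4, sls-2.1 and sls-2.2 and the weaker sls-2.3 (144.8), and the subset with AACCCG includes both the strong sls-2.8 and the weaker sls-2.7.

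The 8 shared bases were looked for at the same distances in every gene. The 5 genes match by construction, and 9 other genes of the 46920 searched had all 8. They were sls-2.3, sls-2.12, sls-2.14, sls-2.15 and sls-2.17, the pseudogene sls-2.19, the small nuclear RNA gene K03B8.10, the piRNA gene 21ur-3338, which lies inside the SmY RNA gene smy-8, and the protein-coding gene srh-30. Of these 9, 7 had a region of the top set within 200 bp, against 2.49% of all genes, and the other two were sls-2.12 and srh-30. Of the 9, 5 are SL2-type genes, a family of which 11 of the 13 unchosen genes have such a region whatever they match. The region counted for 21ur-3338 is that of smy-8. The region counted for sls-2.19 had its pooled summit 157 bp upstream, away from the 8 bases. The summit of its strongest region lay 147 bp upstream in replicate 1 and 47 bp in replicate 2. The median gene of the annotation matched 2 of 8.

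The number of matches did not order the SL2-type genes by signal. The strong gene sls-2.2 (2533) matched 7 of 8 and sls-2.5 (689.6) matched 6, whereas sls-2.15 (106.7) and sls-2.12 (23.77) matched all 8. At sls-2.15 the pooled signal was 0.621 of the sum of its replicates, where the central range of the regions matched in both replicates began at 0.914. At sls-2.12, 43.8% of the 36-base words around the gene occurred once in the genome, and the replicate summits were 146 bp apart. Whether either value is the true level was not tested. Of the other unchosen genes that matched all 8, sls-2.3 (144.8) and sls-2.17 (231.1) also lay below sls-2.5, and sls-2.14 (698.1) lay above it. The genes sls-2.10 and sls-2.11 matched 3, with TGTC and GTACAC beginning 47 and 42 bp upstream, 1 bp nearer the gene than in sls-2.1, sls-2.4 and sls-2.9. The gene sls-2.6, with no region, matched 2, and its DNA from 70 to 31 bp upstream was 22.5% identical to that of sls-2.7, although their RNAs were 87.7% identical and the 30 bp before them 86.7%.

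**Figure D4:**
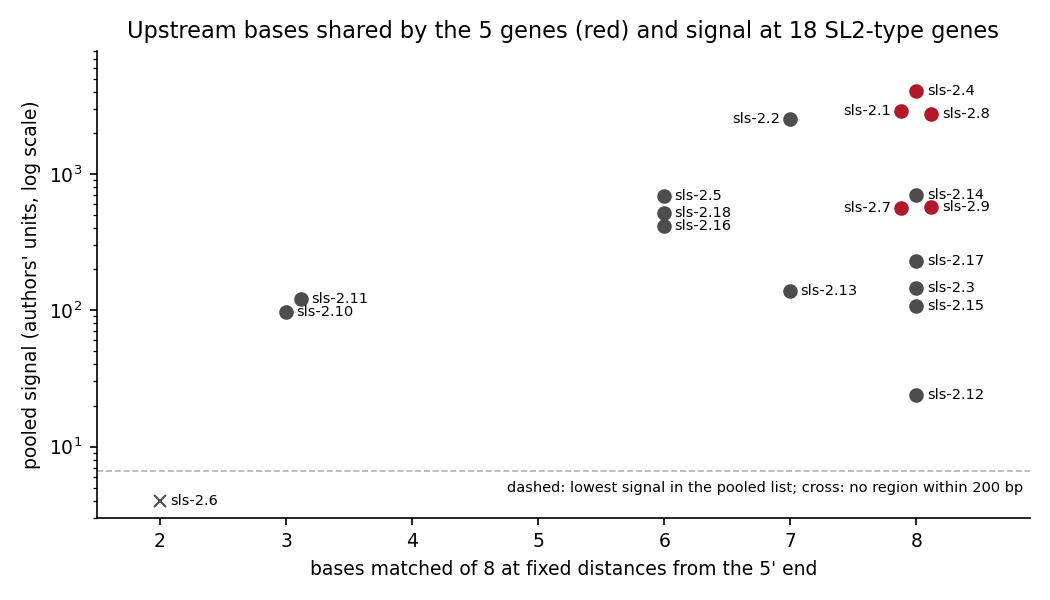
Number of the 8 upstream bases shared by the 5 genes that each SL2-type gene holds (horizontal axis) against its pooled signal (vertical axis, authors' units, log scale); red points are the 5 genes, which hold all 8 by construction, grey points the others, the cross marks sls-2.6 with no region, and points at the same value are moved sideways slightly. The grey genes with 8 matches spread from 23.77 to 698.1.

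At the fixed distances, at least 7 of 8 were matched by 6 of the 60 other small nuclear RNA genes with a region in the top set (10%). Of the 39 without one 1 matched (2.56%), and of all annotated genes 27 (0.0575%). The 8 bases were then allowed to slide by up to 3 bp together, an option added after the matches had been seen. More small nuclear RNA genes matched with the slide. At least 7 of 8 were then matched by 9 of the 13 other SL2-type genes and by 37 of the 60 other small nuclear RNA genes with a region in the top set (61.7%). Of the 39 without such a region 12 matched (30.8%), and of all annotated genes 97 (0.207%). The SL1 genes matched 2 or 3 of 8 at the fixed distances and 5 or 6 with the slide. With the slide 10 of the 12 matched at least 6, as did 1.28% of all annotated genes. TGTCTG began 46 bp upstream in 10 of the 12, and the share of all genes with it at that distance was not computed. Most 36-base words around the SL1 genes recur in the genome, so the 12 are not separate cases. A match describes letters and does not show that a factor bound there.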

How the data were processed

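The deposited data were 8 peak lists made by the authors, 4 each for ce10 and ce11. Per the file names in the labels, the candidate lists were peaks plus background meant as IDR input, IDR being a measure of how alike replicates rank. The deposited signal value of each region and the deposited summit offset in bp (unit: other) were used unchanged. The aligner, the peak caller and the IDR cutoff were not given in the sources used here. Read depth is unknown, so no counting interval was computed. Gene positions and sequences came from RefSeq WBcel235 (ce11), and no coordinate was converted between builds.

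Regions were ranked by signal in each list, and the strongest with a summit within 200 bp of a gene body was taken. The top set is the 1099 strongest pooled ce11 regions; the thresholded lists hold 1099 peaks (ce10) and 213 (ce11). Python 3.11.15, numpy 2.4.6 and Biopython 1.88 were used. The assignment of regions was tested on simulated data. No hypothesis test was run. RNA identity came from global alignments, and upstream identity from ungapped comparison.

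The text names the 5 genes, the 3 highest and 2 lowest other SL2-type genes, overlapping genes and nearest neighbours, genes at adjoining ranks, and pathway genes with a region in the top set; other genes were named after their values were seen. The genes and lists were chosen with earlier results of these data known. Alternatives tried were other distances, single replicates, other list lengths and the region midpoint.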

Additional observations from a re-analysis of the deposited data

How the results depend on the processing

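The ranks of the 5 genes had the same value under 39 of 43 alternatives, but most of these could hardly move a rank. Other distances, overlap with the gene body and the region nearest the 5′ end all picked the same region. Leaving out mitochondrial regions kept the order of the rest. The exceptions all came from single replicates or the shorter thresholded list. They were replicate 1 for sls-2.7 (51), replicate 2 for sls-2.9 (48) and the thresholded list for both (10 and 9). In ce10 the regions at the same place in the order of the chromosome had the same ranks, with no match of positions claimed. Leaving out a replicate moved a summit by at most 12 bp, to 62 bp upstream at sls-2.9, and the region midpoint lay 22 bp upstream at sls-2.4 and 71 bp upstream at sls-2.9. Genes with a region nearby numbered 5 of the 5 genes under every alternative and 11 or 12 of the other 13, except 3 with the 50 strongest regions. Over all annotated genes there were 1170 with the top set, 323 with only as many of the strongest regions as the thresholded ce11 list has peaks, 102 with the 50 strongest and 16041 with all 30000, which follows from the list length. With single replicates they numbered 1137 to 1155. No paired analysis was possible because the samples form 1 group. Read depth is unknown, so its limits could not be given.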

Other observations

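The SmY RNA genes, whose RNAs are found with the trans-splicing machinery of nematodes, were looked at after the signals had been seen. Of the 12 smy genes 11 had a pooled region within 200 bp, from 44.11 at smy-5 (rank 584) to 1651 at smy-2 (rank 15), and smy-1 had none; all 11 were in the top set, which 2.49% of all genes reached, and 34.2% had a candidate of any strength. The second strongest, smy-3, had 802 at rank 38, with its summit 47 bp upstream of the 5′ end, against 52 bp at smy-2. Both lay between the levels of sls-2.8 (2764) and sls-2.7 (561.2). At least 7 of the 8 upstream bases shared by the 5 SL2-type genes were matched by 9 of the 12 with a slide of up to 3 bp, against 0.207% of all genes, and smy-1 was among the 9. Without the slide smy-1 and smy-5 matched 7, and each of the others matched 4 or fewer. Most smy genes are annotated as small nuclear RNA genes, so these matches overlap the counts given above for other small nuclear RNA genes.

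The SL1 array on chromosome V (17118154 to 17132107) held 0 pooled candidates, 0 in replicate 1 and 1 in replicate 2. That candidate had a signal of 4.384 at rank 25830, near the lowest of its list (3.944). It lay 935 bp from the nearest SL1 gene, sls-1.4.

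Of the thresholded ce11 peaks 80 had the exact coordinates of a pooled ce11 region, which is a minority of them, whereas in ce10 all thresholded peaks did.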
